A study of Homo sapiens with 12 samples.

Results

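The genes described here are 38 human genes of the endoplasmic reticulum (ER) that fold, modify, export or degrade secretory proteins, or that sense unfolded protein there. They were taken by symbol, and the probe set naming 1 gene with the highest mean log2 signal over the arrays stood for each gene. Of the 38, 36 had such a probe set, out of 19775 genes on the array, and all 36 passed the filter on dim genes that left 11548 genes for testing. SYVN1 was read only by a probe set that also names another gene, and SEC61G had no probe set with its symbol alone in the annotation used here, so both are without values.

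Total RNA was read on 12 Affymetrix arrays from 2 established lines of mantle cell lymphoma, a tumour of B cells. Per the labels TRAF2 is hit by a nonsense change in Z-138, and TRAF3 is deleted in Maver-1, both genes of proteins that keep the kinase NIK low. Each line carried, under puromycin selection, a doxycycline-inducible hairpin in 3 versions, which were NIKsh#1 and NIKsh#2 against MAP3K14 (the gene of NIK) and a non-targeting control, NTC. Each of the 6 cultures was kept for 7 days with 100 ng/ml doxycycline or without it (0 ng/ml) and gave 1 array per condition. The 8 groups were thus the NIKsh cultures of each line with doxycycline and without it (2 arrays each, 1 per hairpin) and the NTC culture of each line with doxycycline and without it (1 array each). Every array carried an inducible hairpin construct and the puromycin marker, and the labels do not say whether a culture was a clone or a mixed population.

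Secretory and membrane proteins enter the ER through the SEC61 channel, are folded there by BiP (HSPA5) and its partners, and are oxidised by disulfide isomerases. Proteins that fail to fold are drawn back to the cytosol and degraded, a process called ER-associated degradation. When unfolded protein builds up, the sensors IRE1 (ERN1), PERK (EIF2AK3) and ATF6 start the unfolded protein response, in which spliced XBP1 and cleaved ATF6 switch on chaperone and degradation genes. B cells enlarge this machinery when they become antibody-secreting plasma cells.

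Promoters of these genes are known for the ER stress response element, through which ATF6 acts with NF-Y, and they are shown here because the direction of the line difference given below can be set beside it. RefSeq promoters (GRCh38.p14, from 250 bases before to 50 after each start site) were available for 34 of the 38 genes. The letters CCAAT, 9 bases of any kind and CCACG (the element, called ERSE) stood in 6 of these 34 (17.6%) on either strand, against 25 of 27305 genes (0.0916%), and ATTGG, 1 base of any kind and CCACG (ERSE-II) in 3 (8.82%), against 19 genes (0.0696%). The 9 genes with one or the other were HSPA5, HSP90B1, HYOU1, CALR, CANX, SDF2L1, CRELD2, PDIA6 and HERPUD1, which is 26.5% of the 34 against 0.161% of all genes. The shorter letters TGACGTG (UPRE, the core of a site bound by XBP1 and ATF6) stood in 4 (HYOU1, SEC61A1, SSR3 and SSR4; 11.8%), against 2.4% of all genes, and 1 ERSE-II match of HYOU1 overlapped a UPRE match. A match is a match of letters and not a measured binding site. The promoters of the BiP gene, of 2 genes that stood lower in Z-138 and of ERN1, which stood higher there and had none of these letters, read as follows, with the matched letters in capitals.
HSPA5 (chr9:125241294-125241593, minus strand): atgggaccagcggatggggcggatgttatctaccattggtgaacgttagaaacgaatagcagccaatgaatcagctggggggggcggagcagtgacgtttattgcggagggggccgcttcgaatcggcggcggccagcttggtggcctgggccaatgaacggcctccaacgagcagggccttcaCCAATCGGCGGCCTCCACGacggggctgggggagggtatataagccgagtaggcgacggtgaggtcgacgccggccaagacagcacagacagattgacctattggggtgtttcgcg
CRELD2 (chr22:49918384-49918683, plus strand): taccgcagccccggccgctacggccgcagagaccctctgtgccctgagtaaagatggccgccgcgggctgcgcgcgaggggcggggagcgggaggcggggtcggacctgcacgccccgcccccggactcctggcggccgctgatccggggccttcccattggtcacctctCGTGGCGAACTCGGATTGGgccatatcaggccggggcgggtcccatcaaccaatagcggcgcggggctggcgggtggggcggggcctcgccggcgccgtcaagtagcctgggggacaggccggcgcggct
SDF2L1 (chr22:21642052-21642351, plus strand): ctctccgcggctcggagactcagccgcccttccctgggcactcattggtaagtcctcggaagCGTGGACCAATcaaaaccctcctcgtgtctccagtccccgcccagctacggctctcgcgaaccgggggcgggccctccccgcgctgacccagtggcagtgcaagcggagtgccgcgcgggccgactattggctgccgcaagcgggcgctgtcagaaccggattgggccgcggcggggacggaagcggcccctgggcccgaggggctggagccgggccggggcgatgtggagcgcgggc
ERN1 (chr17:64130095-64130394, minus strand): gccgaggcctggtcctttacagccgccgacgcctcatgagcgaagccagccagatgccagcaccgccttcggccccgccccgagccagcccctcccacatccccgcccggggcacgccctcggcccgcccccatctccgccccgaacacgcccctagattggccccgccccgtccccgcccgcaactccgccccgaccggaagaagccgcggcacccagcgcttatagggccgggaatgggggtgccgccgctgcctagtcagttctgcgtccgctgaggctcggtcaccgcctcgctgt

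The matches in the other 6 genes are shown with the bases beside them, in the gene's own direction. Coordinates are those of the match in capitals.
HSP90B1 ERSE (chr12:103930216-103930234, plus strand): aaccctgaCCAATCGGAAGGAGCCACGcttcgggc
HSP90B1 ERSE (chr12:103930321-103930339, plus strand): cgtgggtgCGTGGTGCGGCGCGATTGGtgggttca
HYOU1 ERSE-II (chr11:119057380-119057390, minus strand): ccccgtgaCGTGGTCCAATcccaggcc
HYOU1 ERSE-II (chr11:119057274-119057284, minus strand): gcctgggaCGTGGTCCAATgagtacgc
CALR ERSE (chr19:12938384-12938402, plus strand): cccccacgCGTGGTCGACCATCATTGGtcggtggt
CANX ERSE (chr5:179698778-179698796, plus strand): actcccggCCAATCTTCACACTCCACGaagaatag
PDIA6 ERSE (chr2:10812853-10812871, minus strand): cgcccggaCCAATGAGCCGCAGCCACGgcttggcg
HERPUD1 ERSE-II (chr16:56932025-56932035, plus strand): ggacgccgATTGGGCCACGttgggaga

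The targeted gene, MAP3K14, had a lower signal with doxycycline in each of the 4 NIKsh cultures and a higher one in both NTC cultures. In Z-138 its signal was 33.3 with and 55.2 without doxycycline in NIKsh#1, 49.2 and 52.0 in NIKsh#2, and 55.4 and 46.4 in NTC. In Maver-1 it was 63.4 with and 86.9 without in NIKsh#1, 55.7 and 79.3 in NIKsh#2, and 132.7 and 77.2 in NTC. The log2 change thus ran from -0.68 to -0.08 in NIKsh cultures, against 0.24 and 0.76 in NTC cultures, so the knockdown read on this probe set was partial and smallest in Z-138 NIKsh#2.

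The arrays differed in ACTB, whose signal at the 3' end over that at the 5' end, a ratio, rises with RNA breakdown and with short amplification products. It was 4.62 to 6.34 in Z-138 with doxycycline, against 2.33 to 2.92 without it, and 3.80 to 4.43 in Maver-1 with doxycycline, against 3.66 to 6.88 without it. Untreated, the ratio was thus lower in Z-138 than in Maver-1, and with doxycycline it was higher. The same ratio for GAPDH was 1.15 to 1.301 in untreated Z-138, against 1.536 to 2.389 in untreated Maver-1. With doxycycline the GAPDH ratio overlapped between the lines, at 1.359 to 1.996 in Z-138 and 1.415 to 1.683 in Maver-1. For both genes the highest ratio with doxycycline was on the Z-138 NTC array, so results that lean on that array are also given without it. Over all 12 arrays both ratios were highest on the untreated Maver-1 NTC array, at 6.884 for ACTB and 2.389 for GAPDH. That untreated array enters the comparison of the untreated lines, every comparison with NTC cultures and the MAP3K14 values above. Of the B cell markers, 5 of 5 measured were above the filter, as were 3 of 3 markers of mantle cell lymphoma. The summed signal of 7 plasma cell markers, all above the filter, was 8256.8 to 11787.0 in Z-138, against 6914.1 to 7910.5 in Maver-1. Of 8 T and NK cell markers 2 were above it (CD3G and NKG7), with a summed signal of 96.0 to 218.9 in Z-138, against 21.4 to 46.1 in Maver-1, while CD3D, CD3E, CD2, CD4 and KLRD1 were under it on every array. Of 6 monocyte markers measured 1 was above it (LYZ), with sums of 18.8 to 35.5 in Z-138, against 17.4 to 38.6 in Maver-1, and CD14, CSF1R, S100A8, S100A9 and CD163 were under it on every array. Of 6 stromal, endothelial and epithelial markers 3 were above it (COL1A1, PECAM1 and EPCAM), with sums of 175.7 to 632.3 in Z-138, against 808.4 to 1155.8 in Maver-1, and COL1A2, COL3A1 and VWF were under it on every array. The part of these marker levels in the line differences below was not tested. In bulk RNA, fewer cells of a type and less RNA per cell cannot be told apart.

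The plot of the 36 genes over the 12 arrays sets both lines side by side. The lines without doxycycline are compared first, then doxycycline itself.

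**Figure D1:**
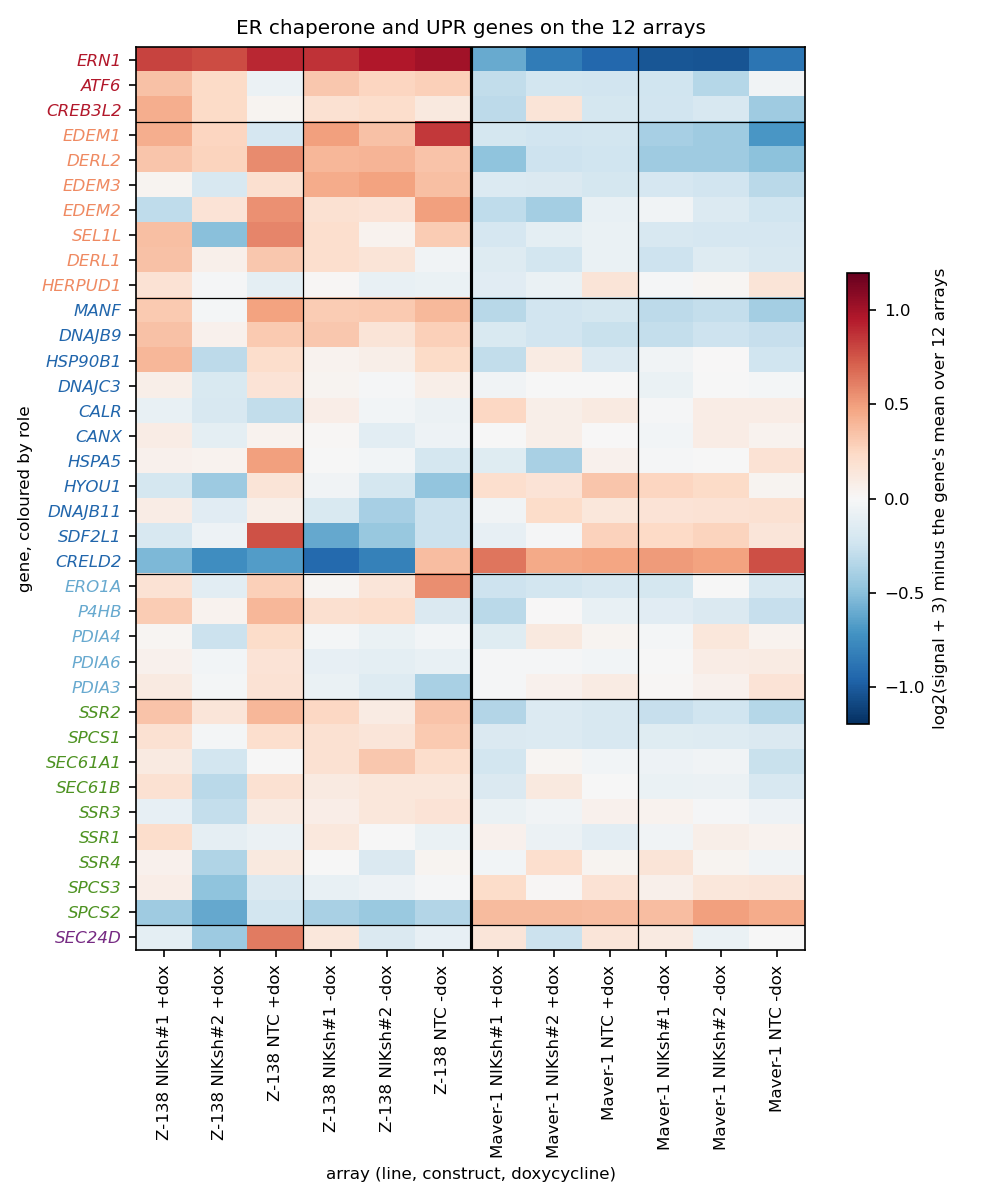
Signal of the 36 ER genes on the 12 arrays, as log2(signal + 3) minus the gene's mean over the arrays (colour scale, red above and blue below the mean). Columns are arrays, Z-138 on the left and Maver-1 on the right, each with doxycycline before those without it, and rows are genes ordered by role. ERN1 and DERL2 are above their mean in every Z-138 column and below it in every Maver-1 column, and SPCS2 is the reverse.

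In untreated Z-138, against untreated Maver-1, ERN1 and most degradation genes of the 38 stood higher. The 3 sensors and transmembrane transcription factors among the 38 (ERN1, ATF6, CREB3L2) and 6 of their 7 degradation genes were higher in Z-138, whereas chaperones and genes of entry into the ER went both ways. Of the 36 genes, 26 passed the test (72.2%), 18 higher and 8 lower in Z-138. Here a gene passed when limma's two-sided test on the 6 untreated arrays gave an adjusted p under 0.05 over all genes. The lines differed broadly, with 60.2% of all genes passing (25.5% higher and 34.8% lower), which is the share to set beside the 26. The 18 higher calls were 50% of the 36 and the 8 lower calls 22.2%, and whether these shares differ from those of all genes was not tested. At an unadjusted p under 0.05 the count was 27 of 36, against 64.3% of all genes. The median log2 difference, Z-138 minus Maver-1, was 0.18 over the 36 genes and -0.08 over all genes. All p-values rest on the spread among these cultures alone.

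ERN1, which encodes the sensor kinase and nuclease IRE1, had the largest difference of the 36. Its signal was 1479.0, 1578.5 and 1635.7 in Z-138 (NIKsh#1, NIKsh#2 and NTC), against 395.9, 395.0 and 442.0 in Maver-1. The means were 1564.4 ± 79.3 in Z-138 and 411.0 ± 26.9 in Maver-1 (SD, n = 3 each), and the groups were far apart on every array. The log2 difference was 1.92 ± 0.09 (SE), 3.79-fold, with a limma adjusted p of 8.40e-10. With doxycycline the lines stayed apart, at 1426.9, 1401.2 and 1520.9 in Z-138 and 534.1, 451.2 and 419.9 in Maver-1. The transcription factor ATF6, released from the ER membrane by cleavage, was higher by 0.50 (adjusted p = 0.00206), with 381.7, 364.1 and 370.4 in Z-138 against 257.6, 239.0 and 295.1 in Maver-1. CREB3L2, a transmembrane factor of the ATF6 type, was higher by 0.46 (adjusted p = 3.89e-04), but the mean over all its probe sets gave -0.084.

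XBP1, whose mRNA IRE1 splices, was the reverse of ERN1. Its signal was 744.5, 691.3 and 666.2 in Z-138, against 1138.9, 1089.6 and 1189.9 in Maver-1, a difference of -0.70 (adjusted p = 8.59e-06). Every untreated Z-138 array was below every untreated Maver-1 array. The array reads the sum of spliced and unspliced XBP1 and gives no measure of splicing.

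Of the 7 degradation genes, all but HERPUD1 were higher in Z-138. EDEM1, a lectin that marks misfolded glycoproteins for removal, had 1687.4, 1530.2 and 2160.2 in Z-138 against 909.4, 889.6 and 738.9 in Maver-1, with a difference of 1.07 ± 0.12 (adjusted p = 5.13e-06). DERL2, a membrane protein of the export channel for misfolded proteins, had 1065.3, 1068.7 and 1021.9 in Z-138 against 599.0, 600.4 and 573.8 in Maver-1, with a difference of 0.83 ± 0.08 (adjusted p = 1.34e-06). EDEM3, which trims mannose, had 1027.1, 1056.1 and 970.9 in Z-138 against 658.3, 642.3 and 602.5 in Maver-1, a difference of 0.68 ± 0.08 (adjusted p = 1.20e-05). No array of one line reached the other for any of these. EDEM2 was higher by 0.43, SEL1L, the adaptor of the HRD1 ubiquitin ligase, by 0.38 and DERL1 by 0.30. HERPUD1, which helps assemble that ligase, did not pass, with 1704.0 ± 65.6 in Z-138 against 1841.5 ± 114 in Maver-1 (SD, n = 3 each).

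Of 11 chaperones and cofactors, 3 were higher and 4 lower in Z-138. BiP itself did not pass, with HSPA5 at 2043.4, 2003.8 and 1774.0 in Z-138 against 2027.9, 2051.0 and 2315.8 in Maver-1 (log2 difference -0.14, adjusted p = 0.143). The BiP-binding secreted factor MANF was higher, at 1674.1, 1679.8 and 1766.9 in Z-138 against 1088.9, 1111.6 and 1016.9 in Maver-1 (0.67 ± 0.07, 1.59-fold, adjusted p = 3.38e-06). The J protein DNAJB9, which opposes IRE1 through BiP, was higher too, at 1048.9, 937.5 and 1024.6 in Z-138 against 689.2, 707.0 and 693.4 in Maver-1 (0.52 ± 0.08, adjusted p = 1.07e-04). The GRP94 gene HSP90B1 was higher by 0.21 with an adjusted p of 0.0475.

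The 4 lower chaperones were CRELD2, SDF2L1, DNAJB11 and HYOU1. CRELD2, an ER stress protein with isomerase activity, had 215.3, 235.1 and 536.9 in Z-138 against 593.6, 580.2 and 711.5 in Maver-1, a difference of -1.05 ± 0.25 (adjusted p = 0.00306). Without the Z-138 NTC array the CRELD2 difference was -1.46, and over the 6 ways of leaving out 1 untreated array it ran from -1.46 to -0.81. SDF2L1, a partner of the J protein DNAJB11, had 84.7, 94.5 and 109.0 in Z-138 against 154.7, 158.0 and 145.4 in Maver-1 (-0.66 ± 0.14, adjusted p = 0.00146). DNAJB11 itself had 718.6, 619.6 and 680.6 in Z-138 against 917.5, 920.5 and 926.4 in Maver-1 (-0.45, adjusted p = 4.92e-04). HYOU1, a nucleotide exchange factor of BiP, was lower by 0.42 on the log2 scale (adjusted p = 0.0121). The lectin chaperones CALR and CANX and the J protein DNAJC3 did not pass.

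The medians of genes with the ERSE or ERSE-II letters and of genes without them lay on different sides of 0 here, which is a description of groups formed after the values had been seen and carries no test. Of the 9 with the letters, 1 had a positive and 8 a negative difference, with a median of -0.14. Among the 8, HSPA5 and HERPUD1 did not pass and were positive on another probe set above the filter (0.375 and 0.352). CALR (-0.061) and CANX (-0.091) did not pass either. For CALR, CANX and PDIA6 the other probe sets above the filter were negative, like the chosen ones. Of the 23 measured genes with a promoter and no match, 17 were positive and 6 negative, with a median of 0.38. HSP90B1 was the 1 gene with the letters that was called higher in Z-138, and CRELD2, SDF2L1, HYOU1 and PDIA6 were called lower. Among the 23 without a match, 15 were called higher and 3 lower. Over all genes 44.2% had a positive difference, 25.5% were called higher and 34.8% lower. HSP90B1, HYOU1 and PDIA6 lost their calls in some fits that leave out 1 untreated array. On the arrays with doxycycline PDIA6 was positive, and so was SDF2L1 unless Z-138 NTC was left out.

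Among the oxidoreductases, which form and shuffle disulfide bonds, P4HB (0.27) and the oxidase ERO1A (0.38) were higher, PDIA3 (-0.28) and PDIA6 (-0.16) lower, and PDIA4 did not pass. Entry into the ER was mixed as well, with 4 of 9 genes higher, 2 lower and 3 not passing. The signal peptidase subunit SPCS2 was lower at 1735.5, 1669.5 and 1782.3 in Z-138 against 2942.2, 3194.7 and 3107.0 in Maver-1 (-0.83 ± 0.06, 1.78-fold, adjusted p = 9.85e-08). Its partner SPCS1 went the other way, at 0.38 (adjusted p = 1.99e-04), as did the translocon-associated SSR2 at 0.51 (adjusted p = 4.27e-05), whereas SPCS3 was lower by 0.17 on the log2 scale (adjusted p = 0.0276). SEC61A1 (0.36) and SEC61B (0.24), the channel itself, were higher. SEC24D, of the vesicle coat that carries cargo out of the ER, did not pass.

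**Figure D2:**
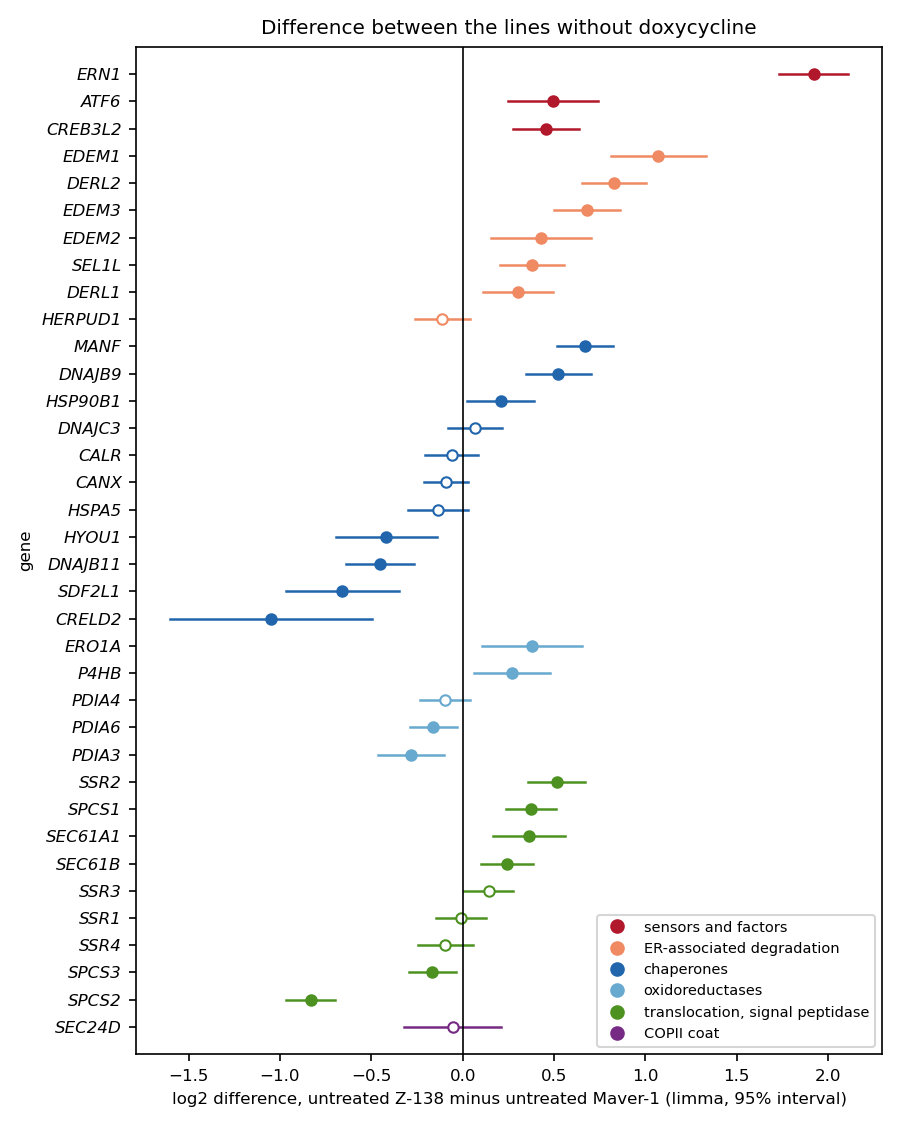
Log2 difference of each of the 36 genes, untreated Z-138 minus Maver-1, with the 95% interval of the limma model, coloured by role. Filled points have an adjusted p under 0.05, 18 to the right of 0 and 8 to the left, with ERN1 at 1.92 and CRELD2 at -1.05 at the ends.

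In 18 genes every untreated Z-138 array was above every untreated Maver-1 array (27.9% of all genes did so) and in 8 every one was below (37.9%). Leaving out 1 untreated array at a time kept 19 of the 26 calls in all 6 cases. Without the Maver-1 NTC array, which had the highest ACTB and GAPDH ratios, 21 were kept, the fewest. DERL1 lost its call without Z-138 NIKsh#1 (0.25) and HYOU1 without Maver-1 NIKsh#1 (-0.37). ERO1A lost it without Z-138 NTC (0.22), Maver-1 NTC or Maver-1 NIKsh#1, and HSP90B1 without the same 3 (0.15 without Z-138 NTC) or Z-138 NIKsh#2. P4HB lost it without Z-138 NIKsh#1 (0.21), Z-138 NIKsh#2 or Maver-1 NTC, and SPCS3 without Z-138 NIKsh#1 (-0.15), Maver-1 NTC or Maver-1 NIKsh#2. PDIA6 lost it without any 1 of 4 arrays, Z-138 NIKsh#1 and NIKsh#2 (-0.15), Maver-1 NTC and Maver-1 NIKsh#2, and all of these kept their sign. Of 17 called genes with several probe sets above the filter, 16 had the same sign on all of them, the exception being CREB3L2. On the 6 arrays with doxycycline the order of the lines in the ACTB ratio was turned, while their GAPDH ratios overlapped. On these arrays 23 of the 26 kept their sign and 10 kept both sign and call: CRELD2 (-1.18), SPCS2 (-0.80), SPCS1, P4HB, DERL1, DNAJB9, MANF (0.52), SSR2, DERL2 (0.72) and ERN1 (1.63). The 3 that changed sign were SDF2L1 (0.12), PDIA6 (0.081) and PDIA3 (0.039). EDEM1 kept its sign, although the Z-138 NTC array with doxycycline, at 1045.6, lay near the Maver-1 arrays with doxycycline, at 1022.7 to 1036.8. Without that Z-138 NTC array, a setting chosen after seeing the data, 12 of the 26 kept sign and call. PDIA6 (0.031) and SEC61B (-0.054) then had the other sign, while SDF2L1 (-0.18) and PDIA3 (-0.005) were negative again. P4HB (limma adjusted p = 0.0705) and DERL1 (limma adjusted p = 0.054) lost their calls.

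**Figure D3:**
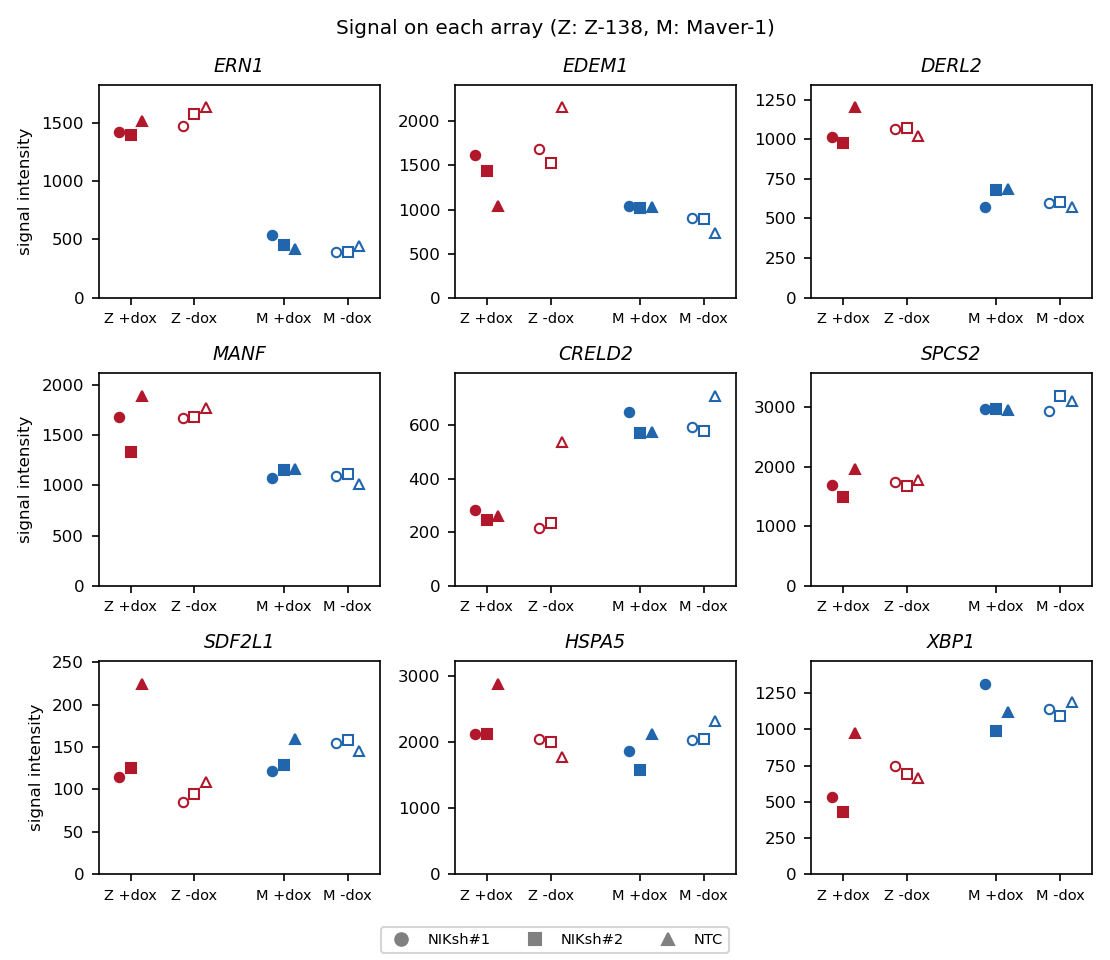
Signal of 9 genes on each of the 12 arrays, in linear units, with Z-138 in red left of Maver-1 in blue; filled symbols had doxycycline and open symbols did not, and circles, squares and triangles are NIKsh#1, NIKsh#2 and NTC. ERN1, DERL2 and SPCS2 separate the lines in both conditions, whereas HSPA5 overlaps.

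Genes of the same pathways that were not among the 38 were set beside them. Of 15 other genes of the response itself, 3 were higher and 3 lower in untreated Z-138, with WFS1, an ER membrane protein, at 1.13 and CREB3, a transmembrane factor of the ATF6 type, at -0.84. ATF6B, the paralogue of ATF6, was among the lower ones at -0.40 (adjusted p = 0.00308), and at 0.53 as the mean over its probe sets. ATF4, DDIT3 and EIF2AK3, of the PERK branch, did not pass, at -0.06, 0.18 and 0.08. Of 13 other folding genes, 6 were higher and 4 lower, with the oxidase ERO1B at 2.03 (adjusted p = 2.08e-07) and the prolyl isomerase FKBP11 at 1.67 (adjusted p = 3.10e-09). Of 13 other degradation genes, 3 were higher and 5 lower, led by SELENOS, a membrane adaptor of the ATPase VCP, at -1.32 (adjusted p = 1.49e-07), with VCP at -0.48. Of 20 other translocation and glycosylation genes, 4 were higher and 5 lower (SEC11C 0.66, RPN1 -0.68), and of 14 genes of transport between ER and Golgi 3 were higher and 5 lower (SEC23A 0.62, SEC31A -0.61).

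Induction of the MAP3K14 hairpins left no ER gene past the threshold. In the 4 NIKsh cultures, with culture as a block, limma called 0 of the 36 genes (5 of 11548, or 0.0433%, of all genes, and 0 without Z-138 NIKsh#1 or without Maver-1 NIKsh#1), and 1 had an unadjusted p under 0.05, against 8.98% of all genes. That gene was SSR3, a subunit of the translocon-associated complex, at -0.19 ± 0.08 (adjusted p = 0.498). In Z-138 its signal was 1864.8 with and 2110.8 without doxycycline for NIKsh#1, and 1631.7 and 2189.9 for NIKsh#2. In Maver-1 it was 1890.0 with and 2045.6 without for NIKsh#1, and 1930.7 and 1968.4 for NIKsh#2. It was lower in every NIKsh culture, as were HYOU1 and SPCS1 (3 genes; 8.29% of all genes were), and none of the 36 was higher in all 4 (9.95% of all genes were). The next smallest p-values belonged to EDEM2 and EDEM3 (both -0.25) and SEC61A1 (-0.18). Leaving out 1 culture at a time, these ran from -0.33 to -0.17 for EDEM2, from -0.35 to -0.11 for EDEM3 and from -0.26 to -0.060 for SEC61A1. All 36 intervals of the mean log2 change over the 4 NIKsh cultures lay between -0.54 and 0.51, so that each mean was within 1.5-fold. A single culture could lie outside, as EDEM3 did at -0.669 in Z-138 NIKsh#2. The median change was -0.02 against 0.01 over all genes.

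In the 2 NTC cultures 0 of 36 genes passed (0% of all genes), and 3 had an unadjusted p under 0.05 (3.35% of all genes). These were CRELD2 (-0.67 ± 0.20), HYOU1 (0.46 ± 0.17) and P4HB (0.38 ± 0.13), each with a limma adjusted p of 0.895. In Z-138 CRELD2 was at 283.8 with and 215.3 without doxycycline in NIKsh#1, 247.1 and 235.1 in NIKsh#2, and 259.4 and 536.9 in NTC. In Maver-1 it was at 648.7 with and 593.6 without in NIKsh#1, 571.5 and 580.2 in NIKsh#2, and 575.9 and 711.5 in NTC. The untreated NTC array was thus the highest of its line for CRELD2 in both lines. Without Z-138 NTC, which leaves Maver-1 NTC alone, the changes were -0.30 for CRELD2, 0.29 for HYOU1 and 0.19 for P4HB.

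The difference between both effects, NIKsh minus NTC, sets the knockdown against induction as such. It passed for 0 of 36 genes (0% of all genes), with an unadjusted p under 0.05 in 4, against 5.43% of all genes. These were CRELD2 (0.81 ± 0.25, adjusted p = 0.876), HYOU1 (-0.59 ± 0.20), SEC24D (-0.60) and P4HB (-0.39). In Z-138 HYOU1 had 327.1 with and 370.1 without doxycycline for NIKsh#1, 280.2 and 328.7 for NIKsh#2, and 422.1 and 272.0 for NTC. In Maver-1 it had 438.6 with and 456.3 without in NIKsh#1, 424.9 and 446.9 in NIKsh#2, and 477.8 and 389.2 in NTC. In 6 genes (HYOU1, MANF, P4HB, EDEM2, DERL2 and SEC24D) each NIKsh culture's change was under that of either NTC culture (6.45% of all genes), and in 2 (CRELD2 and ATF6) it was over both (7.12%). Without Z-138 NTC the difference was 0.45 for CRELD2, -0.43 for HYOU1, -0.32 for SEC24D and -0.20 for P4HB. The intervals of this difference over all cultures ran from -1.31 for SDF2L1 to 1.36 for CRELD2, so changes of over 2-fold in some genes lie within them.

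**Figure D4:**
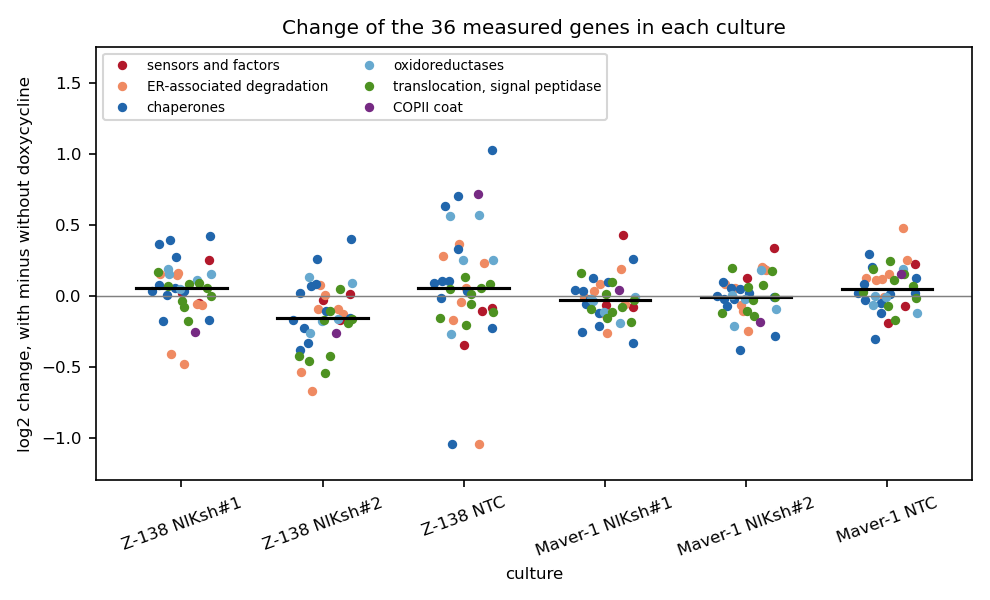
Log2 change of each of the 36 genes in each culture, with doxycycline minus without it, with a black bar at the median. The medians lie between -0.16 (Z-138 NIKsh#2) and 0.06 (Z-138 NIKsh#1), and Z-138 NTC has the widest spread, from -1.04 to 1.02.

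The medians lay near 0 in every culture, whereas the spread was widest in Z-138 NTC. In Z-138 the SD over the 36 genes was 0.20 for NIKsh#1, 0.23 for NIKsh#2 and 0.41 for NTC, against 0.15 in each Maver-1 culture, and over all genes it ran from 0.26 to 0.54. In Z-138 NTC, SDF2L1 changed by 1.02, HSPA5 by 0.70, SEC24D by 0.72, EDEM1 by -1.04 and CRELD2 by -1.04. That culture also had the largest gap in the ACTB ratio, at 6.34 with and 2.33 without doxycycline, and the part of this gap in the changes was not tested.

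Over all 3 cultures of Z-138, the mannose-trimming EDEM3 was lowest and the chaperone partner SDF2L1 highest in the change with doxycycline, and neither passed. With limma 0 of the 36 genes passed (146 of all genes, 1.26%, did, 0.719% higher and 0.546% lower), and 10 had an unadjusted p under 0.05 (21.4% of all genes). The smallest p-values belonged to EDEM3 (-0.42 ± 0.11, limma adjusted p = 0.094), PDIA3 (0.29 ± 0.08, adjusted p = 0.103), SDF2L1 (0.61 ± 0.19, adjusted p = 0.12) and DNAJB11 (0.29 ± 0.10, adjusted p = 0.148). EDEM3 was at 773.3 with and 1027.1 without doxycycline in NIKsh#1, 663.3 and 1056.1 in NIKsh#2, and 861.3 and 970.9 in NTC. SDF2L1 was at 114.5 with and 84.7 without in NIKsh#1, 125.4 and 94.5 in NIKsh#2, and 224.6 and 109.0 in NTC. Higher in all 3 were HSPA5, CANX, DNAJB11, SDF2L1, PDIA3, PDIA6 and SSR2 (7 genes; 19.7% of all genes), and lower in all 3 were CALR, EDEM1, EDEM3, SEC61A1, SSR3, SPCS1 and ERN1 (7 genes; 15.3%). Some of these rest on the chosen probe set. The mean change of CANX was 0.064 on that one and -0.238, -0.072 and 0.013 on its others above the filter. Another probe set above the filter gave -0.096 for HSPA5 and 0.261 for ERN1. Without the Z-138 NTC culture EDEM3 was called, at -0.54 ± 0.11 (adjusted p = 0.0281), as the 1 of the 36, beside 503 of all genes (4.36%), with PDIA3 at 0.16 and SDF2L1 at 0.41. Of the other pathway genes, TRAM1, which helps some proteins enter the ER, was higher by 0.44 ± 0.07 (adjusted p = 0.0413), a call lost without Z-138 NIKsh#2 (adjusted p = 0.205), without any 1 of the 3 Maver-1 cultures (0.0786 to 0.0939) and in 4 other settings (0.0583 to 0.155). The plasma cell marker MZB1, an ER protein of antibody-making cells, was lower at -1.07 ± 0.13 (adjusted p = 0.0413), a call lost without Z-138 NIKsh#2 (adjusted p = 0.205), without any 1 of the 3 Maver-1 cultures (0.0786 to 0.0939), with no filter (0.0504) and with no intensity trend (0.0894). Among the other plasma cell markers, IRF4 was also lower in all 3 Z-138 cultures. PRDM1, SDC1, JCHAIN, TNFRSF17 and ELL2 were each higher in 1 of the 3.

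In Maver-1 0 of 36 genes passed (0% of all genes), and 0 had an unadjusted p under 0.05 with limma (2.14% of all genes). The smallest p-values belonged to HSPA5 (-0.21), EDEM1 (0.29), ERN1 (0.18) and CREB3L2 (0.16). Leaving out 1 culture at a time, HSPA5 ran from -0.25 to -0.12, ERN1 from 0.059 to 0.31 and CREB3L2 from 0.069 to 0.28. In Z-138 HSPA5 was at 2126.0 with and 2043.4 without doxycycline in NIKsh#1, 2118.5 and 2003.8 in NIKsh#2, and 2884.4 and 1774.0 in NTC. In Maver-1 it was at 1861.8 with and 2027.9 without in NIKsh#1, 1570.9 and 2051.0 in NIKsh#2, and 2122.8 and 2315.8 in NTC. All intervals in Maver-1 lay between -0.58 and 0.66.

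The test of the difference itself, the doxycycline change in Z-138 minus that in Maver-1, called 0 of 36 genes (0% of all genes), with an unadjusted p under 0.05 in 8 (13.7% of all genes). HSPA5 differed by 0.49 ± 0.16 and EDEM3 by -0.48 ± 0.16 (limma adjusted p = 0.288 each), SDF2L1 by 0.78 ± 0.26 and EDEM1 by -0.69 ± 0.24. HSPA5 and PDIA6 were higher in 3 of 3 Z-138 cultures and lower in 3 of 3 Maver-1 cultures (3.98% of all genes were). EDEM1 and EDEM3 were lower in 3 of 3 Z-138 cultures and higher in 3 of 3 Maver-1 cultures (2.38% of all genes). For HSPA5 this pattern rests on the chosen probe set. Its other probe set above the filter had the opposite signs, with a mean change of -0.096 for Z-138 against 0.034 for Maver-1. The other probe sets of PDIA6 and EDEM3 had the signs of the chosen ones, and EDEM1 had 1 probe set. Without the Z-138 NTC culture HSPA5 differed by 0.28, SDF2L1 by 0.57, EDEM3 by -0.61 and EDEM1 by -0.36, and 0 genes of the 36 passed, against 89 of all genes (0.771%). The ACTB ratio was higher with doxycycline in 3 of 3 Z-138 cultures and lower in 2 of 3 Maver-1 cultures, and its part in these differences was not tested.

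**Figure D5:**
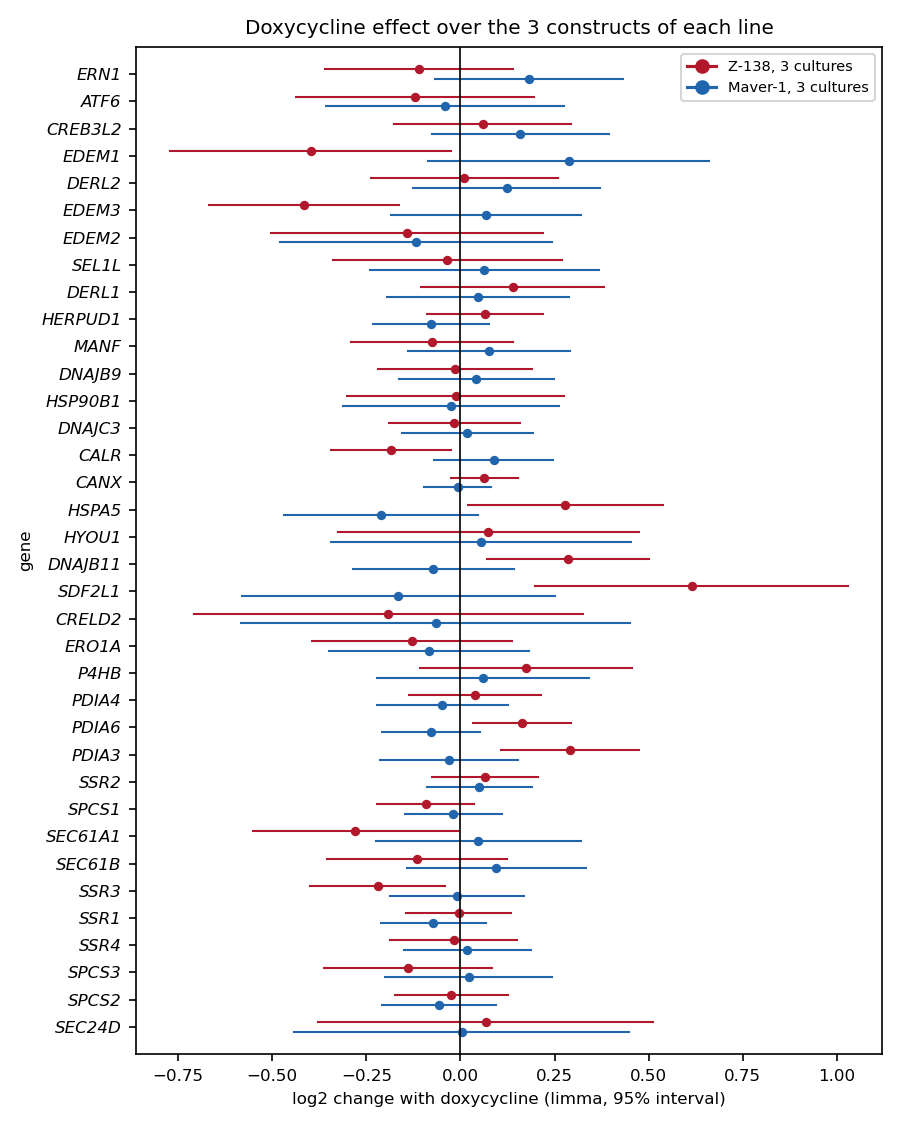
Log2 change with doxycycline of each of the 36 genes over the 3 cultures of Z-138 (red) and of Maver-1 (blue), with 95% intervals of the limma model. None of the 36 reaches an adjusted p of 0.05 in either line, and SDF2L1 (0.61) and EDEM3 (-0.42) are the ends in Z-138.

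The probe sets of these genes that were not chosen, 51 above the filter from 26 genes, gave another picture of doxycycline in Z-138. Their median change was -0.19, with 41 negative and 10 positive, against -0.02 with 21 negative and 15 positive for the 36 chosen. In Maver-1 the median was 0.03, with 33 positive. The line difference had a median of 0.29 on these probe sets and 0.18 on the chosen ones. In Z-138 the ACTB ratio was higher with doxycycline, and its part in the change of these probe sets was not tested.

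Untreated NIKsh and NTC cultures were compared with the line as a term, to see whether hairpin cultures differed before induction. Of the 36 genes 0 passed (0% of all genes), and 3 had an unadjusted p under 0.05 (4.78% of all genes), CRELD2 (-0.76 ± 0.17, limma adjusted p = 0.901), P4HB (0.25) and HYOU1 (0.28). Without the Maver-1 NTC array CRELD2 was called, at -1.24 ± 0.12 (adjusted p = 0.00405), as 1 of 108 of all genes (0.935%), so 1 library decides that call. Without the Z-138 NTC array the CRELD2 difference was -0.28. The fit without Maver-1 NTC leaves Z-138 NTC as the only NTC array, and the fit without Z-138 NTC leaves Maver-1 NTC. In each, the NTC array left is taken to vary like the others. The untreated NTC arrays enter both this comparison and those of the doxycycline effect above.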

How the data were processed

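Total RNA of 6 cultures, each with and without doxycycline, was amplified, labelled with biotin and read on 1-colour Affymetrix arrays. Each deposited value was the intensity of a probe set on a linear scale, made by the authors with MAS5, per the submitters' processing notes; the software version is not given in the sources used here. The trimmed mean intensity (2 percent off each end) was 150.02 on every array, so the arrays share 1 scale and no further normalization was applied. Array medians ran from 10.6 to 14.1. Detection calls were not used here, and precision is limited by how few arrays there are.

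Of 54675 probe sets, 41091 had 1 symbol in the platform annotation, 1801 several and 11721 none here, and 62 were controls. Per gene, the single-symbol probe set with the highest mean log2(signal + 3) was used, and a gene was kept when its mean signal was at least 12.55 (the median over arrays of the array medians). The pseudocount of 3 makes log2 changes understate those of dim genes.

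limma 3.58.1 in R 4.3.3 (lmFit, eBayes with intensity trend, two-sided, Benjamini-Hochberg over 11548 genes, threshold 0.05) was fitted on all 12 arrays with culture as a fixed block, since the labels say that cells were put in medium with or without doxycycline, and on the 6 untreated arrays with line, or line and knockdown, as terms. The fits were run on simulated data with independent noise for each gene. Those data held no shift shared by the genes of an array, so they do not show how the fits handle one. The correlation across genes between the deviations of the 2 arrays of a hairpin from their group means was 0.202 in Maver-1. In Z-138 it was -0.038, so the 2 arrays of a hairpin did not go together there. No 2 arrays were duplicates, with at most 0.29% equal values. Tables and figures used Python 3.11.15, pandas 2.3.3, numpy 2.4.6 and matplotlib 3.10.9.

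All members could be named, with values on every array for those past the threshold or with the 4 smallest p-values of a comparison. Up to 4 genes per pathway list by smallest p, and MAP3K14, XBP1, ATF4, DDIT3 and EIF2AK3, could be named too. The members, lists and alternatives were chosen with earlier results of these data known. Alternatives were quantile normalization, other pseudocounts and filters, averaged probe sets, no intensity trend, other treatments of the block, and leaving out each culture.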

Additional observations from a re-analysis of the deposited data

How the results depend on the processing

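Precision is limited by 3 cultures a line and 4 residual degrees of freedom, and detection calls were not used, so dim genes such as MAP3K14 are weakly measured. Of 1418 recomputed values, 1279 kept their direction and their side of the threshold, or a count within 1.5 times. This tally is no measure of robustness, since many of the values could not change. Settings that alter only the filter, the intensity trend or the block leave each log2 value as it was. A gene with the same sign and a call in neither fit also counted as kept, as did a count with no calls in either. On the arrays with doxycycline, 11 members passed between the lines, and 13 without Z-138 NTC, an alternative chosen after seeing the data, against 26 untreated (4194 and 4391 of all genes, against 6956). Leaving out each culture gave 21 to 24 members between the untreated lines, 0 to 1 with doxycycline in Z-138 and 0 to 1 between untreated NIKsh and NTC cultures. Of the 26 calls, 22 remained without the filter, 22 with averaged probe sets, 20 without the intensity trend and 19 with the mean of both arrays of a culture, the last chosen after seeing the data. Averaged probe sets turned CREB3L2 (-0.084), ATF6B (0.53), ERP44 (0.077) and SURF4 (0.089). The arrays with doxycycline turned PDIA3 (0.039), PDIA6 (0.081) and SDF2L1 (0.12), and without Z-138 NTC PDIA6 (0.031), SEC61B (-0.054) and TRAM1 (0.047). The cause was not tested. With no replicate block, or with the replicate block as a random effect, 0 members passed in each doxycycline comparison, while 16 and 13 of all genes passed in NIKsh cultures, against 5, and leaving out a culture gave 0 to 5. With doxycycline in Z-138, 24 genes passed after quantile normalization, 15 over averaged probe sets, and 0 when filter or trend was dropped, against 146, and leaving out a culture gave 0 to 1033.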
